A study of Mus musculus with 6 samples.

Results

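*Ada* and 9 further genes of purine and deoxynucleoside salvage, 10 of the 41457 genes in the count tables, were followed in double-negative (DN) thymocytes of mice, immature T cells without CD4 and CD8 on their surface. The set was chosen by name around *Ada*, which had been seen to be higher in one of the groups, so the values of *Ada* chose the set and are given as a description with no test. The other members are *Pnp*, *Adk*, *Aprt*, *Dck*, *Dguok*, *Tk1*, *Samhd1*, *Nt5e* and *Impdh2*. All 10 passed the filter on low counts.

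Cells recover purines from broken-down nucleic acids instead of building every ring anew. ADA turns adenosine and deoxyadenosine into inosine and deoxyinosine, PNP splits these into free bases, and kinases and phosphoribosyltransferases return nucleosides and bases to the nucleotide pool. The pathway is known for its importance to lymphocytes: loss of ADA or PNP in humans causes immunodeficiency, because deoxynucleosides that are not cleared are phosphorylated to deoxynucleotides that are toxic to developing T cells.

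Poly(A) RNA had been sequenced from 3 Nc1Bio and 3 BirA libraries. The study describes these DN cells as freshly isolated and names no stimulation for them. Nc1Bio mice (*Nfatc1/A-Bio.BirA*) carried a bacterial artificial chromosome with a tagged, additional copy of *Nfatc1*, the gene of the transcription factor NFATc1, together with the biotin ligase BirA expressed from the *Rosa26* locus. BirA mice, whose genotype is labelled WT, carried the ligase alone and so share it with Nc1Bio. Mice were on the C57/B6 background, sex and age matched and 4 to 6 weeks old, and DN cells had been enriched by depleting CD4+ and CD8+ cells on magnetic beads. Whether each library is from its own animal is not given in the labels, so the p-values rest on the spread among these 6 libraries, which may be technical.

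The libraries held 11845952 to 14013497 reads assigned uniquely to a gene in Nc1Bio and 13767665 to 15393763 in BirA. Levels are given as unique reads scaled to the library size (CPM) unless total reads, which also hold reads shared between genes, are named. *Nfatc1* stood at 573, 597 and 551 CPM in Nc1Bio, against 152, 128 and 96.8 CPM in BirA, with reads of the added copy and the mouse's own gene counted together. Its log2 fold change was 2.19, and it was the 1 gene called among 12224 tested (0.00818%) by the edgeR quasi-likelihood test (adjusted p = 0.0141, threshold 0.05). Genes of DN thymocytes summed to 7604 to 9221 CPM in Nc1Bio and 6687 to 7657 CPM in BirA, led by *Dntt*, so the labelled cell type was present throughout. Other cells were present too: erythroid genes alone summed to 17644 to 97497 CPM in Nc1Bio and 20062 to 66106 CPM in BirA.

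The promoters of *Ada*, *Tk1* and *Pnp* are shown because these are the members whose Nc1Bio and BirA libraries did not overlap in at least one read column. This held for *Ada* in both columns, for *Tk1* in unique reads only and for *Pnp* in total reads only. Over all genes tested on unique reads, 8.45% were higher without overlap and 9.98% lower. Each sequence is the 250 bases before the RefSeq gene start in GRCm38.p6, read 5′ to 3′ on the strand of the gene. Capitals mark GGAAA, the core of the motif bound by NFAT proteins, or its reverse complement TTTCC. The *Ada* window is chr2:163750240-163750489 on the minus strand, the *Tk1* window chr11:117826015-117826264 on the minus strand and the *Pnp* window chr14:50944053-50944302 on the plus strand. The *Pnp* window and the last part of the *Tk1* window lie inside the gene as the count tables place it, since other starts are annotated there.
Ada: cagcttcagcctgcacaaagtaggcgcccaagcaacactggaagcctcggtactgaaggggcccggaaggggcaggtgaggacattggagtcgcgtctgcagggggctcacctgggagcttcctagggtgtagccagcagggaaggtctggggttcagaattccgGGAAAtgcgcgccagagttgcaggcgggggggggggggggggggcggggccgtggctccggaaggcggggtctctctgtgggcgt
Tk1: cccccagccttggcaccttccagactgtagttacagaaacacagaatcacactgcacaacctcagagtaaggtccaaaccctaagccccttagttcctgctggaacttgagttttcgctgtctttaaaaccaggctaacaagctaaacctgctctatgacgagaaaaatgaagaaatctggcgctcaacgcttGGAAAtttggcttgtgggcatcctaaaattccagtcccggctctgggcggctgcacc
Pnp: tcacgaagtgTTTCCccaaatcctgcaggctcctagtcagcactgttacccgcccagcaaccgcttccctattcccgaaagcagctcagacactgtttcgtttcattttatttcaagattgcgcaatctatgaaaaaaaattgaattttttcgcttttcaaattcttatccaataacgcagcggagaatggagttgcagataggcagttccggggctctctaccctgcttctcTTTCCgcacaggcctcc
The *Ada* window holds the motif 1 time, the *Tk1* window 1 time and the *Pnp* window 2 times. Of the 10 members, 6 had at least 1 match in a window (*Ada*, *Pnp*, *Tk1*, *Adk*, *Aprt* and *Impdh2*), and 55.6% of 32851 RefSeq promoters of this length hold one. A match is a run of letters and was not tested for binding.

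*Ada* (ENSMUSG00000017697, chromosome 2, 163726584 to 163750239, GRCm38) encodes adenosine deaminase. It stood at 86.9, 87.6 and 85.4 CPM in Nc1Bio, against 60.5, 63.5 and 62.0 CPM in BirA. The 3 Nc1Bio libraries were all above the 3 BirA libraries, as was the case for 8.45% of the 12224 genes tested. On this scale the replicates of each group lay close together. Nc1Bio averaged 86.6 ± 1.16 CPM (SD, n = 3) and BirA 62.0 ± 1.51 CPM (SD, n = 3), a 1.40-fold difference with a log2 fold change of 0.48 (SE 0.082). These values rest on 1044 to 1155 reads per library in Nc1Bio and 838 to 992 in BirA. The coefficient of variation was 1.34% in Nc1Bio and 2.44% in BirA, below the 3.01% and 3.32% that counting alone gives for such read numbers. The closeness depends on the scaling. As exon reads per kilobase of exon scaled to the library total, *Ada* stood at 30.5 ± 4.48 in Nc1Bio and 23.0 ± 2.45 in BirA (SD, n = 3). *Ada* overlaps no other gene in the tables, and its log2 fold change stayed between 0.46 and 0.50 when any 1 library was left out. Because these values chose the set, the SE, the spread and this range describe *Ada* and are no evidence for a difference.

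**Figure D1:**
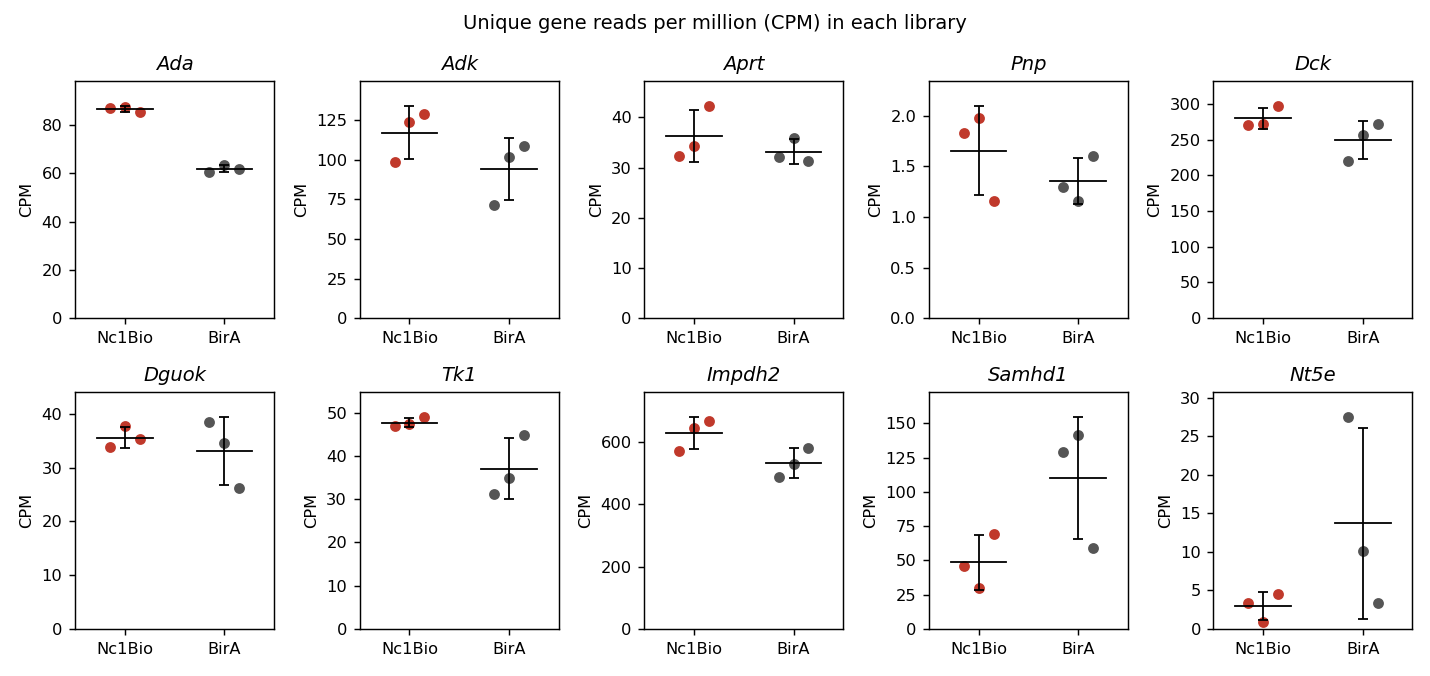
Each panel plots 1 of the 10 members, with CPM of unique gene reads on the y axis, Nc1Bio to the left of BirA, 1 point per library (n = 3 each) and the mean with its SD. The *Ada* points sit at 85.4 to 87.6 CPM in Nc1Bio and 60.5 to 63.5 CPM in BirA, whereas the points of *Samhd1* and *Nt5e* are spread widely.

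The genes whose profile over the 6 libraries was most like that of *Ada* were sought among 8459 genes by the root mean square difference of mean-centred log2 CPM. The closest were *Marcks* (0.0567), *Tmem143* (0.0573), *Sord* (0.0589), *Nt5dc2* (0.0619) and *Ptprf* (0.0630). Their own log2 fold changes lay between 0.39 and 0.45, which follows from how they were picked.

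Among the other 9 members, 7 had a log2 fold change above 0 and 2 below, with a median of 0.16, beside a median of -0.0026 over all 12224 genes, of which 6061 were above 0. None of the 9 was called by edgeR, where 0.00818% of all genes were called. At an unadjusted p under 0.05, *Tk1* was higher, against a background of 4.31% of genes, and *Samhd1* and *Nt5e* were lower, against a background of 7.66%. DESeq2 called *Nt5e* lower (adjusted p = 0.0394), beside 2.32% of its genes called lower and 0.468% called higher, and limma-voom called none of the 9. On total reads DESeq2 called none of the 9 (*Nt5e*, adjusted p = 0.0598), beside 0.469% of its genes called higher and 2.3% lower, and likewise none with no low-count filter, beside 0.32% higher and 2.16% lower.

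**Figure D2:**
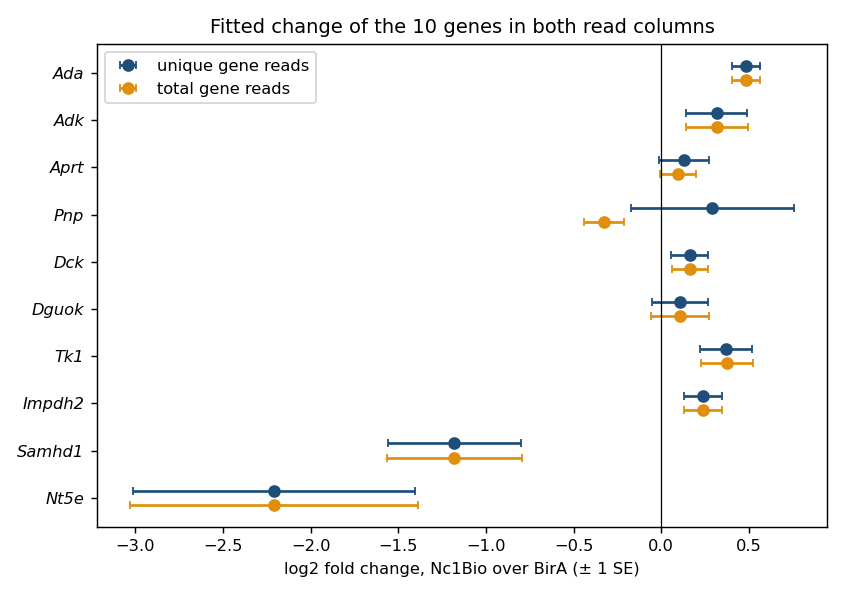
The log2 fold change of Nc1Bio over BirA is plotted for each member from unique and from total gene reads, with bars of 1 SE. *Pnp* lies at 0.29 with unique reads and at -0.32 with total reads, and *Samhd1* and *Nt5e* lie far below 0 with wide bars.

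*Pnp* (ENSMUSG00000115338, chromosome 14, 50931082 to 50965237), the phosphorylase that acts after ADA, was the member that depended most on which reads were counted. It overlaps the gene models *Gm49342* and *Gm38316* and its near copy *Pnp2*, and only 0.97% to 2.07% of its total reads counted as unique. Its unique level was 1.83, 1.97 and 1.16 CPM in Nc1Bio, against 1.30, 1.15 and 1.60 CPM in BirA, from 15 to 26 reads per library. The groups overlapped, and the SE was larger than the log2 fold change itself (0.29, SE 0.47, edgeR adjusted p = 0.836).

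In total reads, *Pnp* stood at 74.7, 68.0 and 64.4 CPM in Nc1Bio, against 95.4, 75.1 and 88.8 CPM in BirA. All Nc1Bio libraries were below all BirA libraries, as was the case for 9.98% of the 13095 genes tested on total reads. The log2 fold change was -0.32 (SE 0.11), with an unadjusted p of 0.0231, a level that 7.32% of genes passed downward, and an edgeR adjusted p of 0.367. The 1 call among all genes in total reads (0.00764%) was again *Nfatc1*.

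The overlapping genes had reads of their own. *Gm49342* stood at 15.9, 15.2 and 35.04 CPM of total reads in Nc1Bio, against 8.59, 16.3 and 9.65 CPM in BirA, and had no unique read in any library. *Pnp2* had 12, 13 and 40 total reads in Nc1Bio, against 4, 8 and 1 in BirA, and no unique read either. Summed over *Pnp*, *Gm49342* and *Pnp2*, the level was 91.3, 83.9 and 102 CPM in Nc1Bio, against 104, 91.8 and 98.5 CPM in BirA. The groups overlap in this sum, so the lower *Pnp* level in total reads cannot be told apart from a different assignment of shared reads between these genes.

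**Figure D3:**
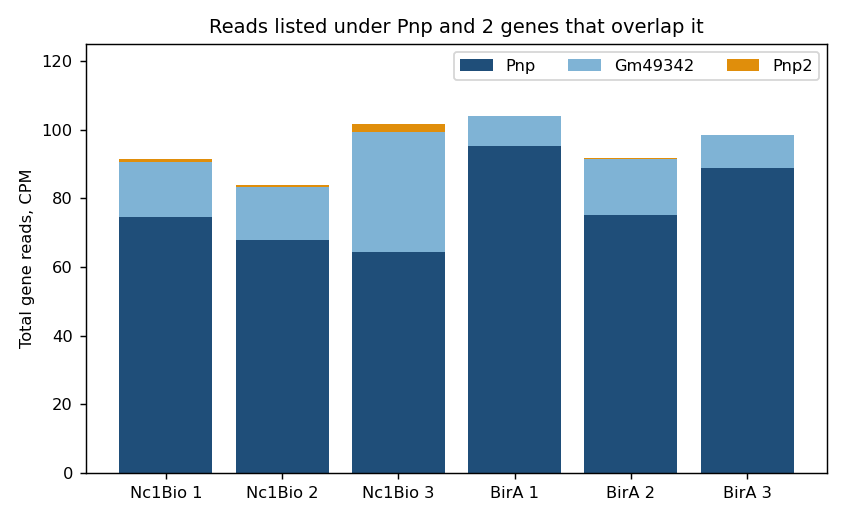
Stacked bars give the CPM of total gene reads of *Pnp*, *Gm49342* and *Pnp2*, 1 bar per library, with Nc1Bio to the left of BirA. *Pnp* alone separates the groups (64.4 to 74.7 CPM in Nc1Bio, 75.1 to 95.4 CPM in BirA), while the sums overlap (83.9 to 102 CPM in Nc1Bio, 91.8 to 104 CPM in BirA).

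*Adk* (ENSMUSG00000039197, chromosome 14, 21052574 to 21448569) encodes adenosine kinase, which competes with ADA for adenosine and returns it to AMP. It stood at 98.4, 124 and 129 CPM in Nc1Bio, against 71.7, 102 and 109 CPM in BirA. Nc1Bio replicate 1 lay within the BirA range and the other two above it. With a log2 fold change of 0.32 (SE 0.17), *Adk* had an edgeR adjusted p of 0.510, and the log2 fold change was 0.15 without BirA replicate 1.

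*Aprt* (ENSMUSG00000006589, chromosome 8, 122574635 to 122576909), which joins adenine to phosphoribosyl pyrophosphate (PRPP), stood at 32.3, 34.3 and 42.2 CPM in Nc1Bio, against 32.1, 36.0 and 31.3 CPM in BirA. Only Nc1Bio replicate 3 stood above the BirA range (log2 fold change 0.13, SE 0.14, edgeR adjusted p = 0.749). *Aprt* overlaps *Gm20388*, and 34.1% to 40.9% of its reads were unique.

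Deoxynucleoside kinases make the first, trapping phosphorylation in deoxynucleotide salvage. *Dck* (ENSMUSG00000029366, chromosome 5, 88764996 to 88783281), which takes deoxycytidine, deoxyadenosine and deoxyguanosine, stood at 271, 272 and 296 CPM in Nc1Bio, against 220, 257 and 272 CPM in BirA. BirA replicate 3 reached the level of Nc1Bio replicates 1 and 2, and the groups overlapped (log2 fold change 0.16, SE 0.11, edgeR adjusted p = 0.570). *Dguok* (ENSMUSG00000014554, chromosome 6, 83480217 to 83506969), the mitochondrial deoxyguanosine kinase, stood at 33.8, 37.7 and 35.2 CPM in Nc1Bio, against 38.5, 34.6 and 26.1 CPM in BirA. BirA held both the highest and the lowest *Dguok* library (log2 fold change 0.11, SE 0.16, edgeR adjusted p = 0.827).

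*Tk1* (ENSMUSG00000025574, chromosome 11, 117815526 to 117826092), the cytosolic thymidine kinase that is made in dividing cells, stood at 46.8, 47.3 and 49.0 CPM in Nc1Bio, against 31.3, 34.8 and 44.9 CPM in BirA. The unique-read groups did not overlap, as for 8.45% of genes that were higher and 9.98% that were lower. *Tk1* had a log2 fold change of 0.37 (SE 0.15, unadjusted p = 0.0385, edgeR adjusted p = 0.394). Unique reads were 25.2% to 26.7% of the total for *Tk1*, which overlaps *Gm20708* and *Afmid*. In total reads it stood at 124.7, 134.4 and 135.6 CPM in Nc1Bio, against 85.5, 93.1 and 126.1 CPM in BirA, where the groups overlapped at an equal log2 fold change of 0.37. BirA replicate 3 lay nearest to Nc1Bio in both columns.

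*Impdh2* (ENSMUSG00000062867, chromosome 9, 108560286 to 108565584), the dehydrogenase that commits IMP to guanine nucleotides, stood at 571, 647 and 669 CPM in Nc1Bio, against 488, 528 and 583 CPM in BirA. Nc1Bio replicate 1 lay within the BirA range and the other two above it (log2 fold change 0.24, SE 0.11, edgeR adjusted p = 0.436). As total exon reads per kilobase of exon, scaled to the library total (the RPKM scale), *Impdh2* was the most abundant member, at 145 ± 19.6 (SD, n = 3) in Nc1Bio and 130 ± 22.7 (SD, n = 3) in BirA. On that scale *Dck* (52.3 ± 5.07 in Nc1Bio and 49.6 ± 9.60 in BirA) and *Aprt* (42.8 ± 4.25 and 42.5 ± 7.15) followed, and their ranges overlapped in BirA but not in Nc1Bio. *Ada* came next, at 30.5 ± 4.48 in Nc1Bio and 23.0 ± 2.45 in BirA, and overlapped with *Tk1* (25.1 ± 3.42 and 20.6 ± 6.08). *Pnp* (17.3 ± 3.14 in Nc1Bio and 22.6 ± 2.48 in BirA) and *Adk* (9.49 ± 1.56 and 8.15 ± 2.39) came next over all libraries, although *Pnp* stood above *Tk1* in BirA. *Samhd1* (3.51 ± 0.876 in Nc1Bio and 8.69 ± 3.27 in BirA) and *Dguok* (5.43 ± 0.888 and 5.24 ± 0.602) changed places between the groups, and *Samhd1* stood above *Adk* in BirA. *Nt5e* was the lowest, at 0.229 ± 0.132 in Nc1Bio and 1.08 ± 0.872 in BirA.

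The members that break nucleotides down had log2 fold changes below 0 and varied more between libraries. *Samhd1* (ENSMUSG00000027639, chromosome 2, 157097533 to 157135265) encodes a hydrolase that cuts deoxynucleoside triphosphates, and stood at 45.8, 30.2 and 69.6 CPM in Nc1Bio, against 129, 142 and 59.1 CPM in BirA. BirA replicate 3 lay within the Nc1Bio range and the other two BirA libraries well above it. The log2 fold change was -1.18 (SE 0.38, unadjusted p = 0.0148, edgeR adjusted p = 0.323), and lay between -1.53 and -0.93 when 1 library was left out, the bounds being set by Nc1Bio replicates 3 and 2.

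*Nt5e* (ENSMUSG00000032420, chromosome 9, 88327197 to 88372092) encodes CD73, the surface enzyme that makes adenosine from AMP outside the cell. It stood at 3.41, 0.91 and 4.55 CPM in Nc1Bio, against 27.5, 10.2 and 3.404 CPM in BirA, from 41, 12 and 59 reads in Nc1Bio and 381, 159 and 49 in BirA. BirA replicate 3 again lay within the Nc1Bio range. The log2 fold change was -2.21 (SE 0.80, unadjusted p = 0.0255, edgeR adjusted p = 0.369), and -1.20 without BirA replicate 1, the library that held most of the reads. The study used CD73 protein as a marker of commitment in γδ thymocytes, T cells with a γδ receptor. It also reported lower expression of γδ receptor segments in Nc1Bio DN cells. The part of γδ thymocytes in the *Nt5e* values was not tested.

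Some marker lists of other cells were lower alongside *Samhd1* and *Nt5e*, and others were not. Erythroid markers were higher in 6 of 6 cases (median log2 fold change 0.54). Granulocyte markers were mixed (2 higher, 4 lower). The granulocyte list summed to 312, 2480 and 4721 CPM in Nc1Bio, against 391, 7484 and 405 CPM in BirA. All 8 tested macrophage and dendritic cell markers were lower (median log2 fold change -0.93), and the list summed to 310, 313 and 695 CPM in Nc1Bio, against 713, 1155 and 168 CPM in BirA. *Lyz2*, lysozyme and the most abundant of them, was at 205, 261 and 593 CPM in Nc1Bio, against 486, 982 and 83.5 CPM in BirA. The list is thus low in BirA replicate 3 and, within Nc1Bio, high in replicate 3, as *Samhd1* was. B cell markers (6 of 6 lower, median -1.72) summed to 84.4, 53.0 and 70.6 CPM in Nc1Bio, against 340, 128 and 123 CPM in BirA, highest in BirA replicate 1 as *Nt5e* was. Markers of NK and innate lymphoid cells (5 of 5 tested lower, median -2.66) summed to 294, 378 and 470 CPM in Nc1Bio, against 646, 661 and 666 CPM in BirA, and markers of double-positive and single-positive thymocytes (7 of 7 lower, median -0.56) to 539, 591 and 635 CPM in Nc1Bio, against 840, 844 and 966 CPM in BirA. Neither of these sums overlapped between the groups. *Klrb1c*, an NK cell receptor gene chosen after its values were seen, stood at 5.996, 0.834 and 0.308 CPM in Nc1Bio, against 36.2, 8.71 and 2.71 CPM in BirA, highest in BirA replicate 1 as *Nt5e* was. *Klrd1*, *Gzmb*, *Tbx21* and *Eomes* of that list were also highest in BirA replicate 1, but *Gzma* and *Ncr1* were not. *Gzma*, the most abundant of the list, stood at 274, 374 and 468 CPM in Nc1Bio. In BirA, *Gzma* stood at 554, 637 and 654 CPM, lowest in replicate 1. *Ncr1* was highest in Nc1Bio replicate 1, at 3.58 CPM. No marker of these lists was at 0 in all libraries. The part of these cells in the *Samhd1* and *Nt5e* values was not tested, and in bulk samples fewer cells of a type and less RNA per cell cannot be told apart.

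Of the genes outside the set that break purines or nucleotides down, *Xdh*, *Entpd1*, *Gda* and *Ampd3* were also low in BirA replicate 3. This did not extend to all such genes, since the nucleotidase gene *Nt5c2* stood at 79.6, 116 and 116 CPM in BirA replicates 1 to 3 and the AMP deaminase gene *Ampd2* at 70.1, 92.7 and 83.9 CPM. *Xdh*, xanthine dehydrogenase, stood at 10.2, 8.72 and 22.4 CPM in Nc1Bio, against 35.6, 58.1 and 11.5 CPM in BirA (log2 fold change -1.35, SE 0.58, edgeR adjusted p = 0.415). *Entpd1*, which encodes CD39 and acts before CD73 on extracellular ATP and ADP, stood at 12.2, 9.18 and 20.0 CPM in Nc1Bio, against 33.7, 33.0 and 14.7 CPM in BirA (log2 fold change -0.98, SE 0.38, edgeR adjusted p = 0.389). For both genes, BirA replicate 3 fell within the Nc1Bio range. *Ampd3*, an AMP deaminase gene chosen after its values were seen, stood at 3.33, 3.79 and 3.62 CPM in Nc1Bio. In BirA, *Ampd3* stood at 4.69, 9.48 and 1.88 CPM. *Gda*, guanine deaminase, which like *Nt5c2* was chosen after its values were seen, stood at 81.4, 43.2 and 198 CPM in Nc1Bio, against 120, 108 and 29.6 CPM in BirA, with Nc1Bio replicate 3 highest and BirA replicate 3 lowest.

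**Figure D4:**
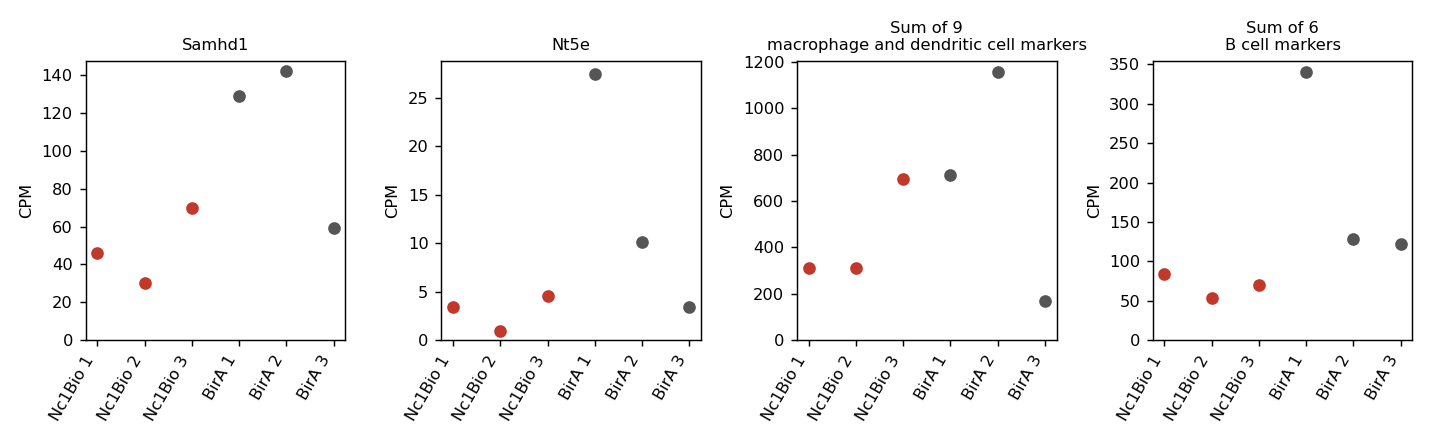
CPM of unique reads of *Samhd1* and *Nt5e* and the summed CPM of 9 macrophage and dendritic cell markers and 6 B cell markers are plotted with 1 point per library, Nc1Bio to the left of BirA. BirA replicate 3 lies within the Nc1Bio range for both genes, and the macrophage sum is 168 CPM there, against 713 and 1155 CPM in the other BirA libraries.

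The CPM of *Ada* varied by 2.44% over the BirA libraries, in which the macrophage sum ran between 168 and 1155 CPM. The part of macrophages or of any other cells in the *Ada* values was not tested.

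The wider nucleotide pathway was followed in a list of 72 genes, of which 66 had enough reads to be tested. None was called by edgeR or limma-voom, while 57 had a log2 fold change above 0 and 9 below (median 0.20), beside 6061 of 12224 above 0 over all genes. At an unadjusted p under 0.05, 8 of the 66 were higher and 3 lower, beside 4.31% and 7.66% of all genes. The groups did not overlap for 13 higher and 2 lower genes of the list, beside 8.45% and 9.98% of all genes. DESeq2 called *Dtymk* and *Prps2* higher and none lower, beside 0.468% and 2.32% of all genes.

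All 12 tested genes of purine synthesis from PRPP had log2 fold changes above 0 (0.11 to 0.36, median 0.27). *Prps2*, a PRPP synthetase, stood at 369, 454 and 404 CPM in Nc1Bio, against 291, 328 and 336 CPM in BirA (log2 fold change 0.36, SE 0.11, edgeR adjusted p = 0.300). *Atic*, which makes the last steps to IMP, stood at 387, 410 and 416 CPM in Nc1Bio, against 305, 359 and 344 CPM in BirA (log2 fold change 0.27, SE 0.096, edgeR adjusted p = 0.363). Neither gene had overlapping groups, as for 8.45% of all genes that were higher, and *Prps1*, *Ppat* and *Pfas* also had an unadjusted p under 0.05.

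In the other purine salvage genes, 8 of 9 were above 0 (median 0.20). *Hprt*, which returns hypoxanthine and guanine to nucleotides and is named for that role, not by its p, stood at 286, 280 and 300 CPM in Nc1Bio, against 207, 248 and 284 CPM in BirA, with overlapping groups. Pyrimidine salvage and thymidylate genes were above 0 in 10 of 12 cases (median 0.21). Among them *Dtymk*, thymidylate kinase, which acts after TK1, stood at 203, 188 and 202 CPM in Nc1Bio, against 140, 135 and 171 CPM in BirA (log2 fold change 0.41, SE 0.11, edgeR adjusted p = 0.263).

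Ribonucleotide reductase subunits differed in direction. *Rrm2*, the subunit of dividing cells, stood at 433, 424 and 443 CPM in Nc1Bio, against 290, 367 and 368 CPM in BirA (log2 fold change 0.34, SE 0.11, edgeR adjusted p = 0.331). *Rrm2b*, the subunit induced by p53, stood at 14.7, 12.2 and 11.9 CPM in Nc1Bio, against 16.7, 16.5 and 19.5 CPM in BirA (log2 fold change -0.44, SE 0.18, edgeR adjusted p = 0.392). Neither had overlapping groups, beside 8.45% of all genes higher without overlap and 9.98% lower.

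Extracellular adenosine genes held the lowest median of the groups (0.047, 8 of 9 above 0). *Dpp4* encodes CD26, which anchors ADA at the cell surface in humans, and stood at 181, 196 and 164 CPM in Nc1Bio, against 122, 142 and 150 CPM in BirA. All Nc1Bio libraries were above all BirA libraries, as for 8.45% of all genes (log2 fold change 0.39, SE 0.11, edgeR adjusted p = 0.291). *Adora2a*, an adenosine receptor that is also named for its role, stood at 32.4, 33.2 and 29.4 CPM in Nc1Bio, against 36.5, 23.4 and 33.7 CPM in BirA, with overlapping groups (log2 fold change 0.023, SE 0.18).

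**Figure D5:**
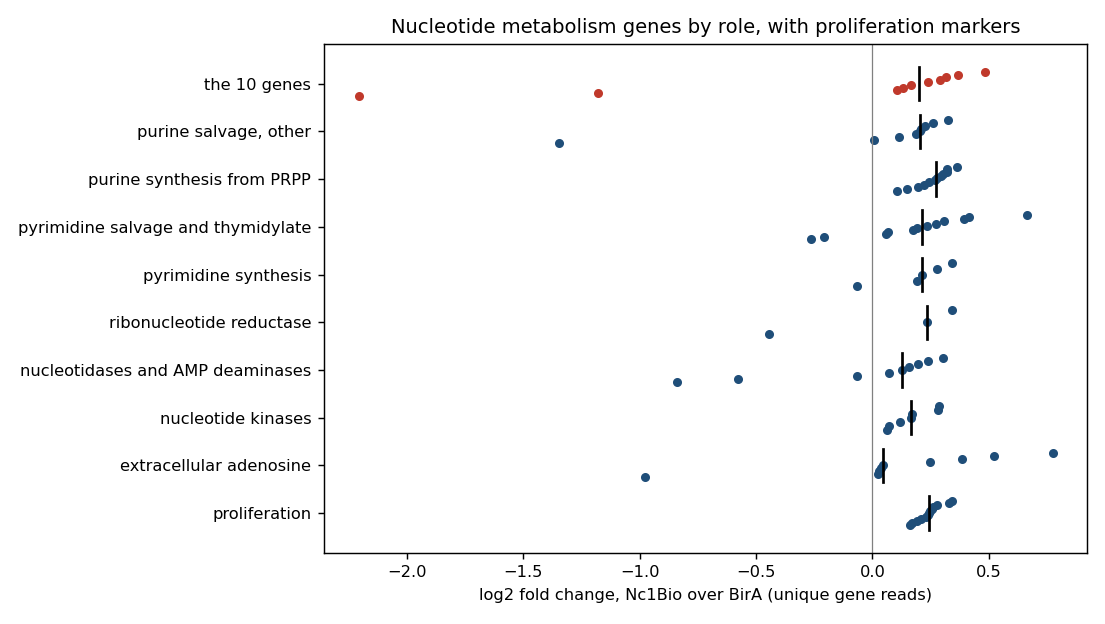
Each point is the log2 fold change of 1 tested gene, Nc1Bio over BirA, in unique gene reads, with the 10 members in the top row, the groups of the nucleotide list below, the proliferation markers at the bottom, and the median of each row as a vertical line. All 12 genes of purine synthesis lie between 0.11 and 0.36, and *Nt5e*, *Samhd1*, *Xdh* and *Entpd1* lie between -2.21 and -0.98.

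Genes of dividing cells moved alongside the synthesis genes. All 13 proliferation markers were above 0 (median log2 fold change 0.24, 0.16 to 0.34) and none was called by edgeR. Their sum was 4420 to 4852 CPM in Nc1Bio and 3410 to 4206 CPM in BirA. *Top2a*, a topoisomerase of dividing cells and the most abundant of them, was at 1119, 1050 and 1108 CPM in Nc1Bio, against 795, 947 and 1036 CPM in BirA. The part of proliferation in the values of *Ada*, *Tk1* and the synthesis genes was not tested.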

How the data were processed

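Per the labels, poly(A) RNA of 3 Nc1Bio and 3 BirA DN thymocyte samples was sequenced. The study's methods name cutadapt, STAR with GRCm38, featureCounts and DESeq2. For every gene the deposited tables hold counts of reads over the gene, its exons and its introns, each as unique and as total reads, by a program not given in the sources used. Whether strand was used is not stated, so overlapping genes are uncertain. RPKM and TPM columns were not used.

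Unique gene reads of genes passing filterByExpr (minimum count 10; 12224 of 41457) were scaled by TMM and tested with edgeR 4.0.16 (quasi-likelihood, R 4.3.3) with genotype as the term, Benjamini-Hochberg adjustment over all genes tested and a threshold of 0.05. Dividing the absolute log2 fold change by the square root of F gave the SE. Library sizes scaled by TMM were used for CPM, and log2 CPM for the profile comparison had an offset of 0.5. The steps were tested on simulated data. Promoter sequences are RefSeq's (GRCm38.p6), and all 10 members matched by symbol.

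Members, lists and tests were chosen with earlier results of these data known. Named are the members in every library, *Nfatc1*, genes of the nucleotide list at an unadjusted p under 0.05 (or the lowest p of a group with none), the 5 nearest profiles of *Ada* and the most abundant gene of marker lists, and not all of these are described. *Hprt*, *Adora2a*, *Gda*, *Nt5c2*, *Ampd3* and *Klrb1c* fall outside this rule and were chosen after their values were seen. Alternatives were RLE scaling, no low-count filter, 1 CPM in 3 libraries, DESeq2 1.42.0, the study's threshold, limma-voom (limma 3.58.1), other read columns, the replicate number as a block and leaving out each library. Chosen after seeing the data were DESeq2 on total reads or with no filter, total reads without each library, and BirA replicate 1 with Nc1Bio replicate 3 left out.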

Additional observations from a re-analysis of the deposited data

How the results depend on the processing

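No member and no gene of the nucleotide list was called by edgeR under any scaling, filter, read column or left-out library (0 in each fit). Limma-voom, run on all 6 libraries only, called none either. DESeq2 counted 2 members (*Ada* and *Nt5e*) and 2 genes of the list on unique reads, 1 member (*Ada*) and 3 genes of the list on total reads (0.469% of all genes called higher and 2.3% lower), and 1 member (*Ada*) with no low-count filter (0.32% and 2.16%). Since the values of *Ada* chose the set, nothing is read from its part in these counts, which leaves *Nt5e* on unique reads as the 1 other member. At the threshold of the study it called 0 members. The cause of the difference between the tools was not tested.

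The log2 fold change of *Pnp* turned round with total gene reads (-0.32), total exon reads (-0.33) and DESeq2 on total reads (-0.33), and stayed so in total reads without Nc1Bio replicate 1 (-0.38), 2 (-0.31) or 3 (-0.29) and BirA replicate 1 (-0.25), 2 (-0.41) or 3 (-0.30). Leaving out 1 library moved *Dguok* between -0.034 (without BirA replicate 3; -0.035 in total reads) and 0.23, and *Aprt* to -0.018 without both BirA replicate 1 and Nc1Bio replicate 3. For *Pnp* the low number of unique reads limits the unique value.

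Whether the replicate numbers pair the samples is not given in the labels and was not settled by the values. Correlations of deviations were 0.34, 0.12 and -0.14 for equal numbers 1, 2 and 3. For unlike numbers they ran between -0.415 and 0.283. With the replicate block, 0 members and 0 genes of the nucleotide list were called, as without it.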
